A study of Drosophila melanogaster with 3 samples.

Results

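The regions described here are promoter summits that fell below the reproducibility threshold of a ChIP-seq experiment yet lay near a summit in every replicate. The study mapped the Drosophila melanogaster protein encoded by CG13296, named Prdm13 in the annotation, by chromatin immunoprecipitation through a GFP tag. The authors deposited relaxed lists of 30000 summits for the pooled libraries and for each of 3 biological replicates, and a set of 5724 pooled summits that met a threshold on the irreproducible discovery rate (IDR). All 3 replicates belong to 1 group: whole embryos of pooled males and females, aged 6 to 18 hours, from a single fly line that stably carries CG13296 with GFP at its C-terminal end. The sources used here do not give the promoter of this transgene or the state of the untagged gene. There was no other genotype, age or treatment, so every comparison sets groups of sites against each other. The labels conflict in that the descriptions call the libraries input, whereas the assay title and the derivation records of the peak lists name them as the immunoprecipitated side. The age tag gives an impossible number, so the age was taken from the source name.

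Members were chosen by 3 measured properties of the peak lists. A member is a pooled summit outside the IDR set, within 500 bp of the transcription start site (TSS) of a protein-coding gene, with a summit within 200 bp in the list of each replicate. The rule found 2894 members, 9.65% of the 30000 pooled summits. They are 47.1% of the 6139 sub-threshold summits at promoters, of which 3245 were not found in every replicate. The IDR set held 2837 summits at the same distance from a protein-coding TSS, here called IDR promoter summits. In these files the IDR set is the 5724 pooled summits of highest signal, so it amounts to a cut on pooled signal. Of the IDR promoter summits, 2672 (94.2%) were found in every replicate by the same rule. Signal, rank and recurrence chose the members, so these are given below as descriptions with no test.

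Proteins with a PR domain resemble SET-domain methyltransferases and carry zinc fingers that can bind DNA. In vertebrates Prdm13 is known for its part in the choice of neuron types in the spinal cord and retina. A weak ChIP-seq summit at a promoter can come from a site bound in few cells of the embryo or bound weakly in many. It can also be background, which the label of the pooled relaxed list says is included. These data from whole embryos cannot tell such sources apart, so a member is not taken here as a bound site. An IDR analysis compares the ranks of peaks between replicates to decide how many peaks to keep. Many Drosophila promoters carry short core motifs such as the DNA replication element, the site of the factor DREF.

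Windows of 201 bases around the summits show what these sites look like. The first windows are those of highest pooled signal that hold a DNA replication element (Orc2), an M1BP site (scrib) or an Ohler 7 motif (Tak1), with the motif in capitals. The rest are the windows of highest signal that hold none of these motifs. All are read 5′ to 3′ along the strand of the gene, from the RefSeq release 6 genome, and lie outside annotated UTRs.
Orc2 (dm6 chr3R:13964595-13964795, plus strand): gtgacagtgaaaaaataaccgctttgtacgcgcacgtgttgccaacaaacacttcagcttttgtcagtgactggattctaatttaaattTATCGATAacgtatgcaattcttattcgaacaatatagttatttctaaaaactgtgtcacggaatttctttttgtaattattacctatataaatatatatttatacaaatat
scrib (dm6 chr3R:26536059-26536259, plus strand): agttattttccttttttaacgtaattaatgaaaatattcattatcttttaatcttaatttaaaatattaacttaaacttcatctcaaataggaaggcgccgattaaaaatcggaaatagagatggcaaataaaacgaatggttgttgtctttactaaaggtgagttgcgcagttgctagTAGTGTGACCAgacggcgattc
Tak1 (dm6 chrX:20525064-20525264, minus strand): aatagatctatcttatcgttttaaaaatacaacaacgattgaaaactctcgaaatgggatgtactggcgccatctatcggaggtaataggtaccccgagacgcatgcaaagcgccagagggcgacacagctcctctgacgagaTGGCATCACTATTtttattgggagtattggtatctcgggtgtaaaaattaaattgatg
Usp10 (dm6 chr3L:887639-887839, plus strand): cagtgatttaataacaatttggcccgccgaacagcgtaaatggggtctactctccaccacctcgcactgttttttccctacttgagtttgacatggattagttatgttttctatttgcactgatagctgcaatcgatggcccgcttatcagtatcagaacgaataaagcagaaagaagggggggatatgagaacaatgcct
pum (dm6 chr3R:9237221-9237421, minus strand): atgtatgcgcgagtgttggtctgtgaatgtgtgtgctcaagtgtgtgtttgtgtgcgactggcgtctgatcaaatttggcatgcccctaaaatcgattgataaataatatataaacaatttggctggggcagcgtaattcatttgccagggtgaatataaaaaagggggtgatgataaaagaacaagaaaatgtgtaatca
cnc (dm6 chr3R:23226852-23227052, minus strand): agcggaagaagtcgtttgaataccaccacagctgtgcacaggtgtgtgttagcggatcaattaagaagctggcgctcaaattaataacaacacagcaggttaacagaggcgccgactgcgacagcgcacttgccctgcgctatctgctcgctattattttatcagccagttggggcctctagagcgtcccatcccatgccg

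Orc2 encodes a subunit of the origin recognition complex, scrib a cell polarity scaffold, and Tak1 a kinase of immune and JNK signalling. The site of Orc2 lay 7 bp upstream of the summit, whereas the sites of scrib and Tak1 lay 84 and 49 bp downstream of theirs. In the pooled list, where rank 1 has the highest signal, these summits held ranks 5853, 6873 and 5798. Orc2 ranked 6121, 5602 and 7340 in replicates 1, 2 and 3, scrib ranked 9845, 7535 and 6733, and Tak1 ranked 6391, 11263 and 6311. Only the Orc2 summit of replicate 2 was among the 5724 of highest signal in a replicate. GC content was 29.4% at Orc2, 31.3% at scrib and 42.3% at Tak1, and 43.8%, 39.8% and 52.2% at Usp10, pum and cnc.

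The recurrence of a part of the members rests on neighbouring peaks. For 262 members (9.05%) the summit that counted as theirs lay nearer to an IDR summit than to the member in at least 1 replicate. Each of these members was within 400 bp of an IDR summit, where 467 members lay. The other 2632 had, in every replicate, a summit at least as near to the member as to any IDR summit. Against all pooled summits, including other sub-threshold ones, 2296 members (79.3%) had the nearest claim in each replicate. The main results are given with and without the 262. Members said below to have summits of their own are the 2632, judged against IDR summits alone. A replicate summit of theirs can still lie nearer to another sub-threshold summit. Altogether 762 members (26.3%) had an IDR summit within 1000 bp, and the median distance to the nearest was 3142 bp. Among the 2632 the share within 1000 bp was 19.0%.

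Recurrence in every replicate became rarer with falling signal. Of the sub-threshold promoter summits ranked 5725 to 10000, 1407 of 1695 (83.0%) were found in every replicate, and of those ranked 25001 to 30000, 60 of 744 (8.06%) were. Recurrence was 57.9%, 32.8% and 15.0% in the bins between. Member ranks had a median of 10154 with quartiles at 7625 and 14006. The pooled signal value, the authors' own measure of peak strength, had a median of 119 in members and 313 in IDR promoter summits. The deposited −log10 q-value had a median of 2.15 in members, and 128 of them (4.42%) were at its ceiling of 4.08. Its minimum was 0.388, at CG3091. It was 1.38 at PCB, whose pooled rank of 14035 is near the upper quartile. At CG43736 (rank 18346) and SLC5A11 (rank 20312) it was 0.893 and 0.767. The rule set no limit on the q-value, so members include summits with weak statistical support in the pooled list. Away from promoters, 6284 of 18137 sub-threshold summits (34.6%) were found in every replicate.

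**Figure D1:**
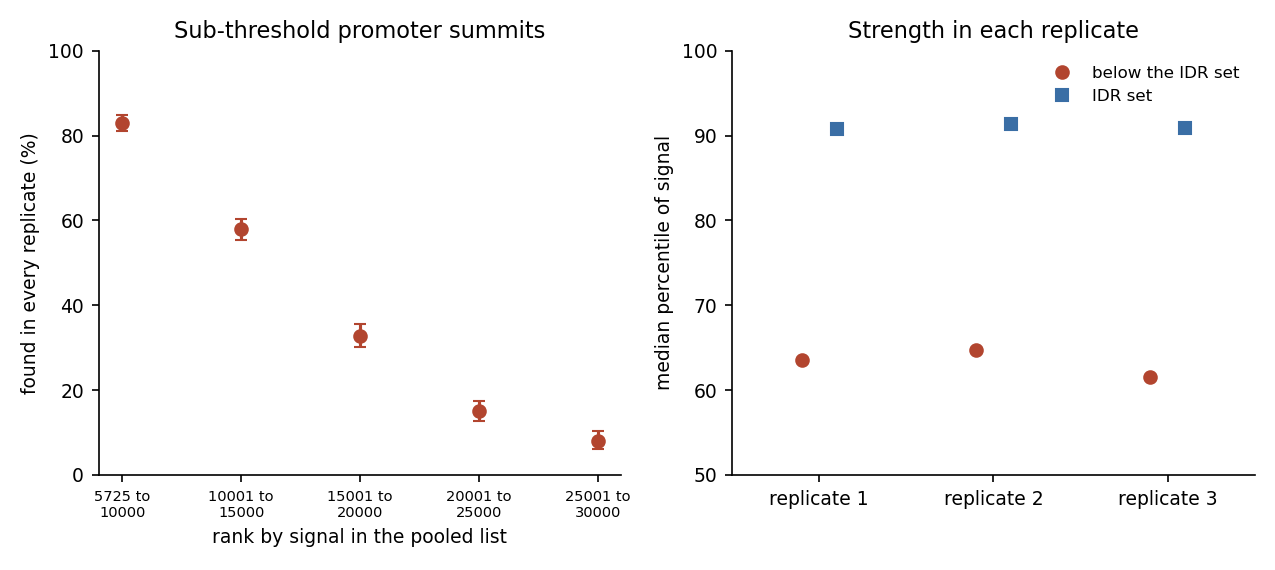
Left, share of sub-threshold promoter summits found within 200 bp in every replicate (%, y) by rank in the pooled list (x), with exact 95% intervals for counting error. Right, median percentile of signal in each replicate's own list for members (circles, 61.5 to 64.7) and IDR promoter summits (squares, 90.8 to 91.3). The share falls in each bin, and members sit below IDR promoter summits in each replicate.

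Members had middling strength in each replicate. Their median percentile was 63.6, 64.7 and 61.5 in the lists of replicates 1, 2 and 3 (mean 63.3 ± 1.63, SD, n = 3), against 91.0 ± 0.296 for IDR promoter summits. A member's summit was among the 5724 of highest signal in 389, 485 and 312 cases. In all, 1947 members (67.3%) were in no replicate's top list, 741 were in 1, 173 in 2 and 33 in all 3. Of these 33, 29 had a replicate summit nearer to an IDR summit, and without such members the counts were 1912, 620, 96 and 4. Replicate summits lay at a median of 36, 33 and 27 bp from the members, and 17, 17 and 14 bp from the IDR promoter summits.

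Members of highest signal ranked unevenly in the replicates. The member just below the IDR set, rank 5725, was at CG30460 (dm6, 2R, 17087371 to 17087810), 42 bp downstream of the TSS in the 5′ UTR. It ranked 6084, 2432 and 9343 in replicates 1, 2 and 3. The last IDR summit, rank 5724, lay 41 bp upstream of HPS4 (2R, 17686430 to 17686869), and both had a signal of 188. At pum, which encodes a translational repressor, ranks ran widely to either side, at 16857, 8427 and 1648 (3R, 9237101 to 9237540). The pum summit was 199 bp from an IDR summit. At ocm (2R, 24186476 to 24186915) replicate 2 stood apart, with ranks 4381, 25538 and 4968, and at anchor (3L, 17621623 to 17622062) replicate 1 did, with 27874, 6201 and 7630. Rgl, which encodes an exchange factor for Ral GTPases, was even in comparison, with 6290, 6685 and 5890 (3L, 13922212 to 13922651).

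The 20 members of highest signal covered genes of several roles. RNA-handling genes among them were Sf3b3, a splicing factor subunit, and Capr, which encodes caprin. Sf3b3 ranked 6934, 3109 and 7695 (3L, 833100 to 833539, 65 bp downstream) and Capr ranked 7649, 4062 and 7936 (3L, 18672974 to 18673413, 34 bp upstream). Transcription regulators were cnc, the fly relative of Nrf2, and nvy, a corepressor of the ETO family. The cnc summit ranked 4457, 13544 and 9131 (3R, 23226732 to 23227171, 241 bp upstream), and that of nvy ranked 10280, 2444 and 10330 (2R, 24275557 to 24275996, 43 bp downstream). Membrane and vesicle genes were Tomosyn, a regulator of vesicle fusion, Irk1, a potassium channel, and Rip11, a Rab11 partner. Tomosyn ranked 4214, 5718 and 8763, Irk1 ranked 3850, 5510 and 11323, and Rip11, whose summit lay in coding sequence 377 bp downstream, ranked 4445, 2777 and 11620. The remaining members were CG45092, Usp10, Sur-8, CG4617, Idgf3, jigr1, CG6656 and CG13492.

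Members in the top lists of all 3 replicates were mostly close to an IDR summit. The 10 with the best mean rank, at CG42327, foxo, Hr78, p38b, rau, numb, PCB, CG43736, htk and SLC5A11, each lay 199 to 224 bp from an IDR summit. At each, the summit of 1 to 3 replicates was nearer to that IDR summit. For example SLC5A11 (2L, 8205091 to 8205522) ranked 167, 316 and 125 in the replicates but 20312 in the pooled list. At numb, which encodes a Notch inhibitor divided unequally in asymmetric cell division, the ranks were 507, 564 and 246 against 10375 in the pooled list. Among the 2632 members with no replicate summit nearer to an IDR summit, 4 were in every top list. This set was named after its values were seen. CG31710 (2L, 9705701 to 9706140, 33 bp downstream) ranked 5403, 4944 and 5261. Adss, an enzyme of AMP synthesis (3R, 20830347 to 20830786, 13 bp downstream), ranked 4180, 3933 and 5401. The others were l(2)k01209 with 1441, 4382 and 5011, and sw, a dynein intermediate chain gene, with 3155, 4632 and 3676. Both of these were also near an IDR summit, at 205 and 206 bp.

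**Figure D2:**
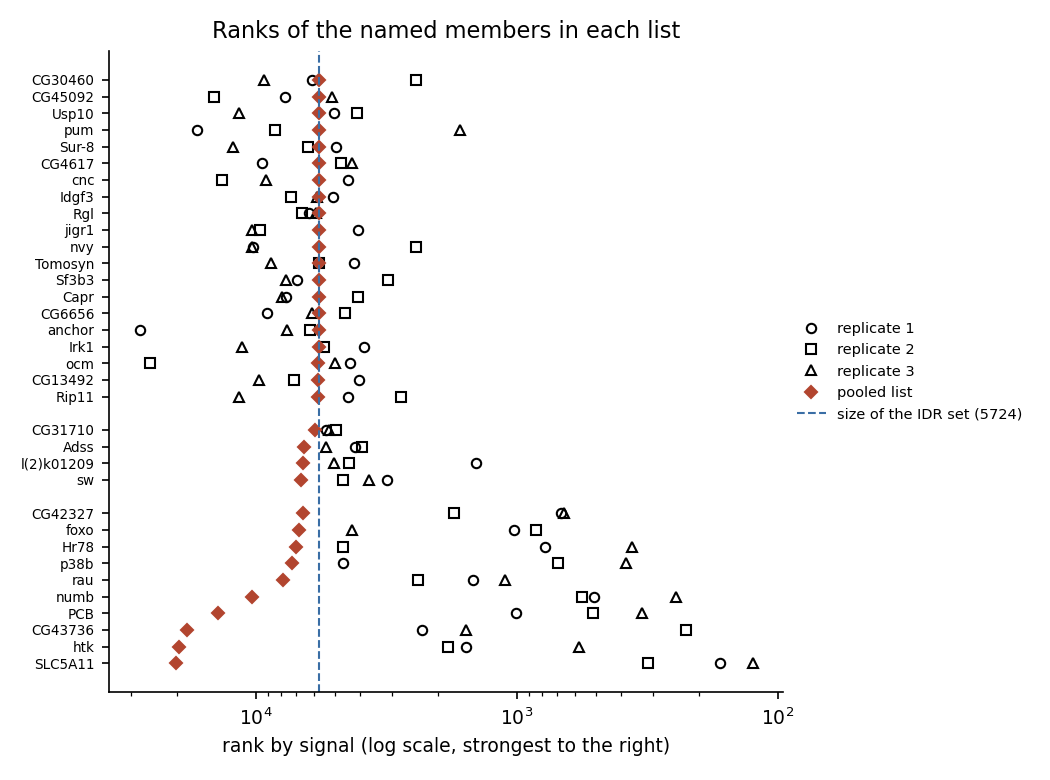
Rank by signal (x, log scale, strongest to the right) in the pooled list (diamonds) and in replicates 1 to 3 (open symbols) for the 20 members of highest signal (top), the 4 whose own summits were in every top list (middle), and 10 members in every top list whose replicate summits were in part nearer to an IDR summit (bottom). The dashed line marks the size of the IDR set, 5724. Diamonds of the bottom group lie to the left of the replicates' symbols. The distance is wide at SLC5A11, with 20312 against 125 to 316, and narrow at foxo, with 6834 against 4303 in replicate 3.

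The weakest members were at sll, squ, CG17652, l(3)neo43 and CG3091, with pooled ranks of 29532 to 29970. CG3091 (X, 2254356 to 2254795) had the lowest pooled signal, 44.3, but ranked 7027, 4274 and 10387 in the replicates, whose summits lay 160, 156 and 136 bp away. At the limits of the rule, the member at vir-1 lay 500 bp from its TSS and the summit at Gfat1, outside, lay at 501 bp. The largest gap to a replicate summit was 200 bp, reached by 20 members, among them Hr78 in replicate 1, and the nearest outside was 201 bp, at CG12170.

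Members lay more often downstream of the TSS than IDR promoter summits. The median position was 34 bp upstream (quartiles -168 and 58 bp) for members and 90 bp upstream (-188 and 9 bp) for IDR promoter summits. Upstream summits made up 60.6% of members (exact 95% interval 58.8 to 62.4) and 72.9% of IDR promoter summits (71.2 to 74.5), an odds ratio of 0.573 (two-sided Fisher's exact test, adjusted p = 2.88e-22). By distance in either direction the medians were 110 and 117 bp, with 69.4% of members and 72.3% of IDR promoter summits within 200 bp. In the replicates' own summits the shares were 60.8% ± 0.653 for members and 73.1% ± 0.88 for IDR promoter summits (SD, n = 3). The share was 56.4% in sub-threshold promoter summits not found in every replicate. Of the members, 33.9% lay in 5′ UTRs and 34.3% outside genes, against 27.1% and 45.01% of IDR promoter summits. Coding sequence held 85 members (2.94%) and 17 IDR promoter summits (0.599%), values that were not tested. Of 9 shares of position and chromosome arm compared in this way, 5 passed (55.6%). Many summits share a gene or a promoter, so the p-values are too small. With 1 summit per gene, an alternative added after seeing the data, the odds ratio for upstream summits was 0.583.

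**Figure D3:**
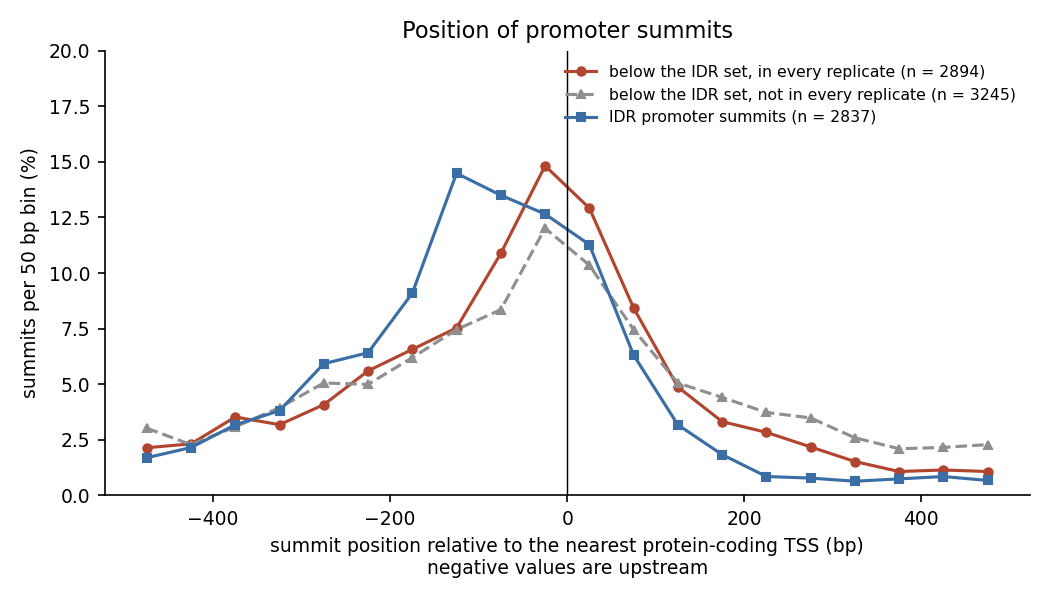
Share of summits (%, y) in bins of 50 bp by position relative to the nearest protein-coding TSS (x, negative upstream), for members (circles), sub-threshold promoter summits not found in every replicate (triangles) and IDR promoter summits (squares). Members peak just upstream of the TSS, with 14.8% in the last 50 bp, and IDR promoter summits peak 100 to 150 bp upstream with 14.5%.

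Divergent promoters, where the TSSs of a pair of genes point away from each other within 500 bp, were less common among members. They held 414 members (14.3%, 13.05 to 15.6) and 747 IDR promoter summits (26.3%, 24.7 to 28.0), an odds ratio of 0.467 (Fisher's exact test, adjusted p = 5.19e-29). Of all protein-coding TSSs, 22.7% are in such pairs, and 13.1% of the sub-threshold promoter summits not found in every replicate lay there. The most upstream TSS of a gene was the nearest one for 67.6% of members and 70.4% of IDR promoter summits (odds ratio 0.876, Fisher's exact test, adjusted p = 0.0373). By the same exact test, this last difference did not pass among members farther than 1000 bp from any IDR summit (adjusted p = 0.319), with recurrence asked within 100 bp (0.214) or with 1 summit per gene (0.147).

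The X chromosome carried more of the members. It held 571 of them (19.7%, 18.3 to 21.2) and 415 IDR promoter summits (14.6%, 13.3 to 15.98), with an odds ratio of 1.43 (Fisher's exact test, adjusted p = 9.37e-07). It has 16.9% of protein-coding TSSs and had 17.4% of the other sub-threshold promoter summits. Without divergent promoters the odds ratio was 1.30 (Fisher's exact test, adjusted p = 0.00398). Arm 3R held 21.6% of members and 24.5% of IDR promoter summits (odds ratio 0.852, adjusted exact p = 0.0249), and arms 2L, 2R, 3L and 4 did not pass. Among the 2632 members with summits of their own, the odds ratios were 0.586 for upstream position, 0.422 for divergent pairs, 0.870 for the most upstream TSS and 1.47 for the X, and all passed Fisher's exact test.

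Core promoter motifs were found at a minority of member summits, at higher shares than in their flanks. Motifs were searched on both strands within 100 bp of each summit and in a window of equal size 500 bp away, on the side facing away from the TSS. The rule placed the summits near a TSS and the flanks lie farther from it, so these shares describe the sites and nothing is read from the test. The DNA replication element, TATCGATA, lay at 4.18% of member summits and 0.933% of flanks (odds ratio 4.92). The M1BP site (Ohler motif 1) lay at 2.04% and 0.0691% (odds ratio 29.5), and it was in 59 summits alone and 2 flanks alone. Ohler 7 lay at 5.63% and 2.25% (odds ratio 2.78), and Ohler 6 at 0.760% and 0.173%. Among shorter motifs, the GAGA site (GAGAG), bound by Trl, was at 30.3% of summits and 21.8% of flanks. The core CGATA of BEAF-32, which the DNA replication element contains, was at 33.5% and 23.8%. CAGCTG, an E-box of class II bHLH dimers and a special case of CANNTG, was at 12.9% and 9.23%. The TATA box was at 18.2% and 17.1%. Lower at summits were the homeodomain core TAATTA (10.1% and 12.5%), the heat shock element TTCNNGAA (4.42% and 5.77%) and the Zelda site CAGGTAG (0.657% and 1.31%). By the exact McNemar test 14 of 22 motifs passed (63.6%). Among the 2632 members with summits of their own 11 did, where the Zelda site, the heat shock element and the repeat CACACA no longer passed. The placing of summits and flanks bears on these counts, so no conclusion is drawn from them. GC content was 42.3% ± 8.44 at summits and 41.7% ± 9.74 in flanks (SD over 2894 windows).

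The same motifs occur at promoters at large. Windows of the same size centred on 19252 protein-coding TSSs held the DNA replication element in 6.45%, the M1BP site in 3.25% and Ohler 7 in 6.80% of cases. At least 1 of these motifs lay at 306 members (10.6%) and 413 IDR promoter summits (14.6%), so most summits of both kinds held none within 100 bp. Of the other motifs named here, the BEAF-32 core was in 37.1% of these TSS windows, the GAGA site in 24.99%, CANNTG in 63.95%, CAGCTG in 13.4%, the forkhead site in 54.2% and GCCAT in 30.8%. The TATA box was in 19.998%, CACACA in 16.1%, TAATTA in 9.39%, the CTCF core in 6.36%, the Mef2 site in 5.97%, the heat shock element in 5.30%, Ohler 6 in 1.43% and the Zelda site in 1.08%. The TATA box was searched as TATA, then A or T, A, A or T, and A or G. The forkhead site was T, A or G, TT, G or T, A or G, and C or T, and the CTCF core was AG, A or G, G or T, and GGC. The remaining motifs searched were the Initiator (TCA, G or T, T, C or T), the GATA site (A or T, GATA, A or G), AACCGGTT of Grainyhead, TGACGTCA of CREB and ATF, and CACGTG of Myc and Max. Where present, sites lay at a median of 42.0 bp from the member summit for the DNA replication element, 35.5 bp for M1BP and 45.5 bp for Ohler 7, against 48.0, 50.5 and 53.5 bp in IDR promoter summits.

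Set against IDR promoter summits, members held some motifs less often and others more often. The Mef2 site lay at 7.22% of members and 12.2% of IDR promoter summits (odds ratio 0.562, Fisher's exact test, adjusted p = 2.67e-09). TAATTA lay at 10.1% and 16.3% (odds ratio 0.573, adjusted exact p = 4.81e-11), the TATA box at 18.2% and 24.4%, and the forkhead site at 60.4% and 66.5%. The DNA replication element lay at 4.18% and 5.99% (odds ratio 0.685, adjusted exact p = 0.00462), and Ohler 7 at 5.63% and 7.72%. Higher in members were the CTCF core (8.53% and 6.13%, odds ratio 1.43), the Pleiohomeotic site GCCAT (28.9% and 24.3%), the GAGA site (30.3% and 25.9%), the repeat CACACA (21.4% and 17.1%) and CANNTG (63.4% and 59.8%). In all 11 of 22 motifs passed (50%), 6 lower and 5 higher. The M1BP site, at 2.04% of both, did not (odds ratio 0.997). In sub-threshold promoter summits not found in every replicate, Mef2 lay at 8.17%, TAATTA at 11.9%, the TATA box at 17.9% and forkhead at 59.7%. The DNA replication element lay there at 3.48%, Ohler 7 at 3.79% and the CTCF core at 6.44%. GCCAT was at 29.7%, GAGA at 28.3%, CACACA at 20.9% and CANNTG at 62.2%. Except for the CTCF core, these shares were nearer to those of members than to those of IDR promoter summits. Among members with summits of their own 11 of 11 still passed, with an odds ratio of 0.691 for the DNA replication element.

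GC content moved with these differences. It was 42.3% ± 8.44 in member windows and 37.6% ± 8.71 in those of IDR promoter summits (SD over windows). Among windows of 35 to 45% GC, 1162 of members and 1010 of IDR promoter summits, Fisher's exact test with adjustment passed 0 of 22 motifs and 2 before adjustment, Ohler 7 and CAGCTG. There the odds ratios were 0.957 for TAATTA, 0.817 for Mef2, 0.626 for Ohler 7 and 0.727 for the DNA replication element, and the direction turned for the forkhead (1.09) and GAGA (0.976) sites. These windows were an alternative added after seeing the data, and hold fewer summits. The call on the DNA replication element was also lost away from divergent promoters (odds ratio 0.879, adjusted exact p = 0.599) and beyond 1000 bp from any IDR summit (0.772, adjusted exact p = 0.0914).

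**Figure D4:**
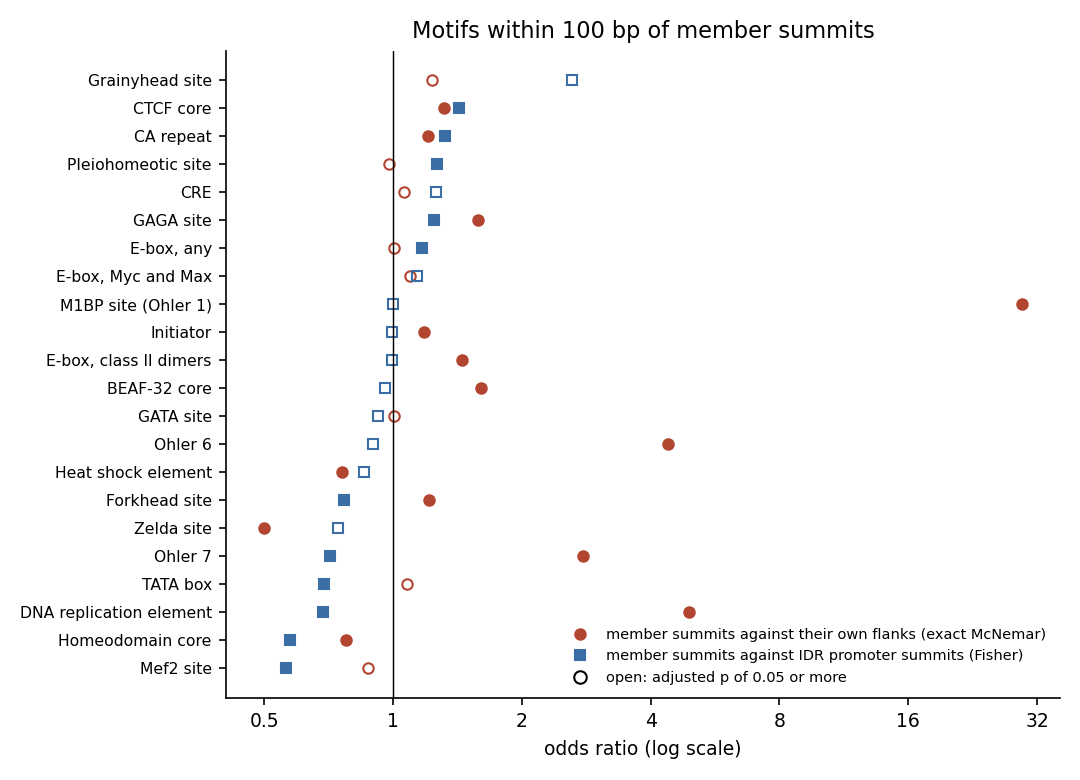
Odds ratio (x, log scale) of each of 22 motifs within 100 bp of member summits, against their own flanks (circles) and against IDR promoter summits (squares). Filled symbols had an adjusted p under 0.05. The rule itself places summits nearer to a TSS than flanks, so nothing is read from the filled circles. The M1BP site stands at 29.5 against flanks and at 0.997 against IDR promoter summits.

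Against the sub-threshold promoter summits that were not found in every replicate, 2 of 22 motifs passed (9.09%). Ohler 7 lay at 5.63% of members and 3.79% of the others (odds ratio 1.51, Fisher's exact test, adjusted p = 0.0147), and the CTCF core at 8.53% and 6.44% (1.36, adjusted p = 0.0231). Neither passed when recurrence was asked of replicates 2 and 3 alone, or of 1 and 3 alone, where 0 motifs passed Fisher's exact test with adjustment and 1 and 5 passed before it. With replicates 1 and 2, the GAGA site, the CTCF core and TAATTA passed and Ohler 7 did not. With recurrence within 100 bp both calls were lost (adjusted exact p = 0.266 for Ohler 7 and 0.217 for the CTCF core), and among members with summits of their own both passed (0.0387). Pooled rank moved with this comparison, with a median of 10154 in members and 19359 in the others. Ohler 7 lay at 6.68%, 5.43% and 3.01% of members ranked 5725 to 10000, 10001 to 15000 and 15001 to 20000. It lay at 4.17% of the 144 members ranked 20001 to 25000 and at 5.00% of the 60 ranked 25001 to 30000. The part of rank in the result was not tested. The mean GC content of these summits, 41.7%, was near that of members.

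Member summits lay within 500 bp of a TSS of 2810 of 13945 protein-coding genes, 20.2%, and IDR promoter summits of 3244, 23.3%. Of the member genes, 1951 had no IDR promoter summit and 859 had both kinds. The share differed with the number of TSSs. Of genes with a single TSS, 14.4% had a member, and of those with 3 or more, 594 of 1133 (52.4%) did. For IDR promoter summits these shares were 17.1% and 52.5%. Counting only the most upstream TSS, 2403 genes (17.2%) had a member. With the 2632 members whose replicate summits were their own, 2522 genes (18.1%) did. The tagged gene had none. Its nearest pooled summit of rank 7706 lay upstream, at -2953 bp from a Prdm13 TSS (3L, 6163127), and no PR domain gene of 4 listed had a member. The gene lists that follow are described by counts beside these shares, with no test.

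Signalling genes often carried members. Of 40 genes of the Wnt, Hedgehog, BMP and EGFR pathways, 22 (55.0%) had a member, against 20.2% of all genes, and 14 had an IDR promoter summit. Members lay at ligand genes (wg, dpp, gbb, spi and vn), at receptor genes (tkv, sax, put, fz2, ptc and Egfr), at sog and rho, which act on ligands outside the cell or on their release, and at intracellular genes such as Med, Raf, arm, ci and pnt. The member at tkv, a BMP receptor gene (2L, 5237187 to 5237626, 45 bp upstream), ranked 5198, 5517 and 13281 in replicates 1, 2 and 3. That at fz2, a Wnt receptor gene (3L, 19170390 to 19170829, 38 bp downstream), ranked 8945, 4275 and 11078. At ci, the Hedgehog pathway transcription factor (4, 56434 to 56873), ranks were 11650, 6666 and 6662, and an IDR summit lay 214 bp away. These genes had a mean of 2.10 TSSs and a median length of 13.7 kb, against 1.41 and 2.17 kb for all protein-coding genes, whose part in the count was not tested. At the most upstream TSS alone 17 of the 40 had a member, where the share of all genes was 17.2%.

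Notch pathway genes had a member in 10 of 26 cases (38.5%), and 9 (34.6%) had an IDR promoter summit, against 20.2% and 23.3% of all genes. Those with a member were N, the receptor, Ser, a ligand, fng, which modifies the receptor, and kuz, which cleaves it. Others were mam, a nuclear coactivator, E(spl)mdelta-HLH, a target, and numb, dx, mib1 and neur. E(spl)mdelta-HLH (3R, 25997044 to 25997483) ranked 11933, 6189 and 5653, and mam (2R, 14008588 to 14009027) ranked 19768, 8897 and 3135. At N (X, 3134834 to 3135273, 184 bp downstream) the signal was weak, with ranks 25624, 14946 and 8948. The kuz summit of 1 replicate was nearer to an IDR summit. The Notch list had a mean of 1.42 TSSs and a median length of 2.01 kb, against 1.41 and 2.17 kb for all protein-coding genes.

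Proneural and neuronal bHLH genes had 3 members among 19 genes (15.8%), nvy, which is not itself a bHLH gene but was listed with them, da and Fer3. Neural genes, with a mean of 2.63 TSSs, had members at 6 of 24, led by cpx, the gene of complexin, which ranked 7396, 2202 and 13023 (3R, 4279915 to 4280354). Syt1, the gene of synaptotagmin, ranked 8646, 8292 and 16317. Genes listed as glial had members at 7 of 13 (53.8%), namely Gli, nrv2, Nrt, pnt, wun2, loco and Nrx-IV. The listing does not mean that a gene is particular to glia. Of these, nrv2 was also listed as neural and pnt as a signalling gene. Gli, which builds tricellular junctions (2L, 15762565 to 15763004, 27 bp upstream), ranked 4470, 7204 and 6553. The Nrt summit was 200 bp from an IDR summit. These lists are short, and 20.2% of all genes had a member. The glial list had a mean of 1.92 TSSs and a median length of 8.36 kb, against 1.41 and 2.17 kb for all protein-coding genes. The part of TSS number and length in the count was not tested.

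Muscle and mesoderm genes had members at 11 of 24 (45.8%), with 8 (33.3%) in the IDR promoter set, against 20.2% and 23.3% of all genes. The structural genes bt, Tm2, Tm1, Act57B, Act87E and Mhc and the regulators how, Mef2 and htl were among them. The member at bt, a giant titin-like protein gene (4, 724177 to 724616, 3 bp upstream), ranked 8067, 11686 and 6463. The list had a mean of 2.46 TSSs and a median length of 10.2 kb, whose part in the count was not tested. Segmentation genes had 3 of 24 (bcd, odd and hry) and Hox genes 1 of 8 (Antp), both 12.5%. Antp (3R, 6932982 to 6933421, 362 bp upstream) ranked 23919, 10124 and 16451, below the top lists each time.

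Cell cycle genes had members at 13 of 25 (52.0%), against 20.2% of all genes. With members that had replicate summits of their own, 10 of the 25 remained, against 18.1% of all genes. The listed genes had a mean of 1.76 TSSs and a median length of 3.43 kb, against 1.41 and 2.17 kb for all protein-coding genes. The part of TSS number and length in the count was not tested. The list, and so the 13, includes fry, a polarity gene entered there by mistake. Its replicate summits were nearer to an IDR summit in 2 replicates. E2f1, a transcription factor of S phase entry (3R, 21660685 to 21661124, 34 bp upstream), ranked 3662, 5928 and 10620. The member at stg, the Cdc25 phosphatase gene (3R, 29255153 to 29255592, 48 bp upstream), ranked 11221, 4919 and 21305, and the nearest IDR summit was 35234 bp away. DNA replication genes had members at 6 of 27 (22.2%), near the share of all genes. None of the 6 had an IDR promoter summit, as was so for 1951 of all 2810 member genes. The 6 were Orc1, Orc2, Mcm6, PolE1, PolA1 and geminin. PolE1 ranked 7405, 12809 and 5208 (3R, 23347871 to 23348310). Mcm6 had a pair of members that shared 1 summit in replicate 3, rank 6235.

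Polycomb and trithorax group genes had members at 11 of 31 (35.5%), and 14 (45.2%) had an IDR promoter summit, against 20.2% and 23.3% of all genes. Those of Polycomb complexes were ph-p, ph-d, Su(z)12, escl, jing and phol, and those of the trithorax group were trx, mor, osa, kis and Bap111. The member at ph-p (X, 2136228 to 2136667, 174 bp downstream) ranked 5521, 7534 and 3816. At trx (3R, 14286551 to 14286990) ranks were 23436, 5226 and 4111. This list had a mean of 1.58 TSSs and a median length of 7.14 kb, whose part in the count was not tested. Insulator and promoter factor genes had members at 4 of 15, among them BEAF-32, su(Hw) and CTCF. The su(Hw) member is shared with Polr2I.

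Housekeeping lists ranged from 8.33% to 31.3%, around the 20.2% of all genes. Cytoplasmic ribosomal protein genes, of which 76 of 86 had an IDR promoter summit, had members at 17 (19.8%). With members whose replicate summits were their own this was 7, and 3 with members beyond 1000 bp from any IDR summit. Of all protein-coding genes, 18.1% and 14.8% had a member in these settings. RpS24, with ranks 7535, 5063 and 9117, had no IDR promoter summit. Aminoacyl-tRNA synthetase genes had members at 10 of 32 (31.3%), and 4 with own summits, where the share of all genes was 18.1%. Mitochondrial ribosomal protein genes had 14 of 73 (19.2%), translation factor genes 12 of 54 (22.2%), respiratory chain genes 18 of 86 (20.9%), proteasome genes 8 of 48 (16.7%), Mediator genes 5 of 29 (17.2%) and general transcription factor genes 7 of 26 (26.9%). RNA polymerase II subunit genes (2 of 13), spliceosome genes (4 of 32) and nuclear pore genes (2 of 24) were at 15.4%, 12.5% and 8.33%. Heat shock genes had 5 of 25, with Hsf and Hsc70-4 highest, and glycolysis genes 3 of 14 (21.4%). All 3 of these glycolysis genes lost their member when only the most upstream TSS was counted, where 17.2% of all genes had one.

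Cuticle protein and chemoreceptor genes had members although none had an IDR promoter summit. Cuticle protein genes, expressed late in embryos by the epidermis, had members at 14 of 95 (14.7%), below the 20.2% of all genes. All 14 remained with own summits, where the share of all genes was 18.1%. Cpr67Fa1 was highest (3L, 10889512 to 10889951, 258 bp upstream), with ranks 7354, 15021 and 7336, and Cpr65Ea ranked 11513, 14249 and 6037. Several lay close together on 3L, among them Cpr65Au, Cpr65Av, Cpr65Aw and Lcp65Ac, and are not independent. Chemoreceptor genes had members at 4 of 180 (2.22%), at Gr97a, Ir31a, Ir21a and Or88a. The members at Gr97a and Ir31a also lay within 500 bp of a TSS of other genes, CG5521 for Gr97a, and that at Or88a was 200 bp from an IDR summit.

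**Figure D5:**
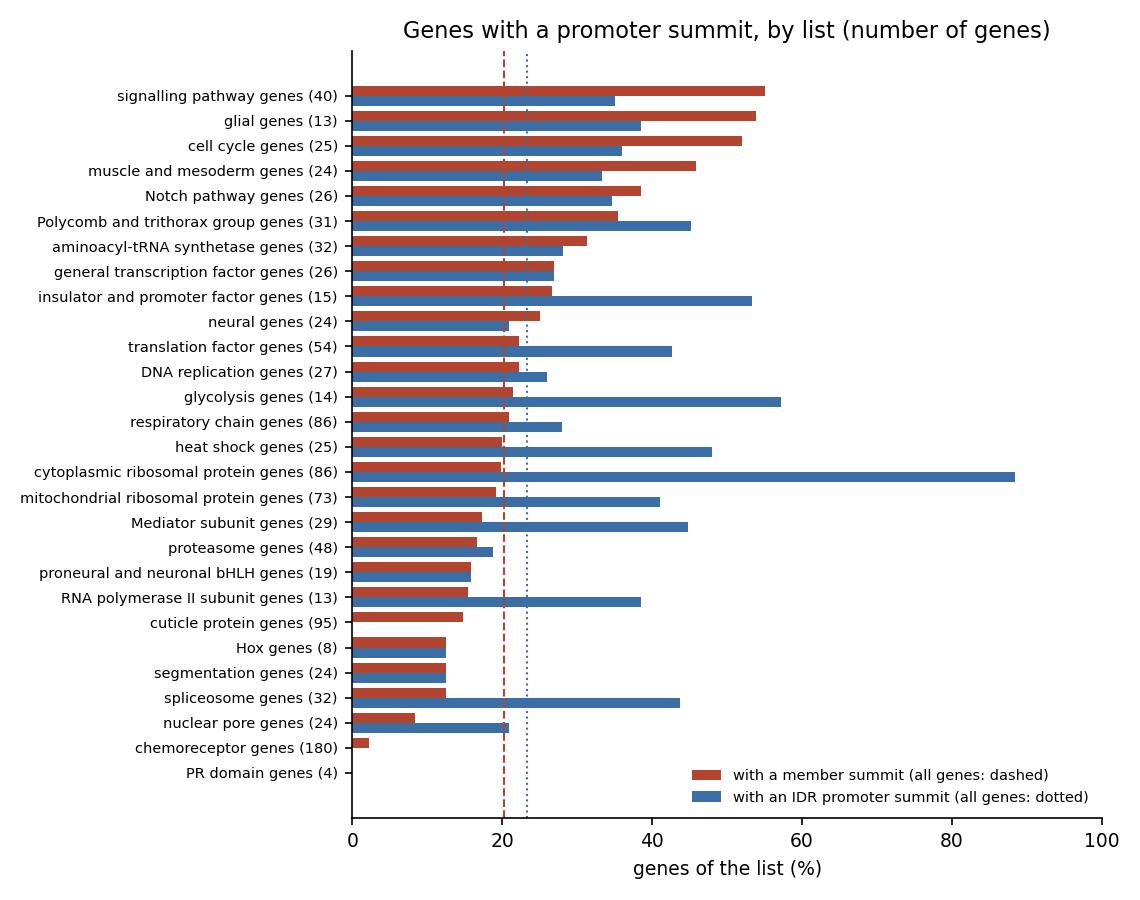
Share of genes (%, x) in each of 28 lists (y, number of genes in brackets) with a member summit (upper bars) and with an IDR promoter summit (lower bars). The dashed line marks 20.2% and the dotted line 23.3%, the shares of all protein-coding genes. Ribosomal protein genes reach 88.4% in the IDR bars and 19.8% in the member bars, and the member bar of signalling genes reaches 55.0%.

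Some genes carried several members. There were 379 genes with 2 and 84 with 3 or more. Tlk, a chromatin kinase gene with 8 TSSs on the X, had 7 members with pooled ranks of 6737 to 20995. CG10512 and mtd had 6 each, and Svil, the supervillin gene with 16 TSSs, and toc had 5 each. CG10512 had 4 TSSs and no IDR promoter summit, unlike the others of these genes. Those with 4 members included Moe, the moesin gene, dlg1, a junction scaffold gene, sd, the TEAD factor gene, and pum, with 8, 7, 7 and 4 TSSs. Of all members, 466 lay within 500 bp of more than 1 gene, and 58 (2.00%) lay nearer to the TSS of a non-coding gene than to the protein-coding one.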

How the data were processed

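ChIP-seq was done on 3 biological replicates of 1 group. Per the deposited derivation records, the authors called relaxed lists of 30000 peaks per replicate and for the pooled replicates, against 1 control, and an IDR set of 5724. The deposited signal score has no stated scale and was used as ranks within 1 list. The deposited −log10 q-value and summit offset (a position, in the class of other units) were used as given. Coordinates are on dm6, per the labels. The aligner, peak caller, IDR threshold and read numbers are not given in the sources used here. Depth is thus unknown.

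Genes came from the Ensembl 115 annotation of BDGP6.54, which shares its coordinates with dm6, and sequence came from the RefSeq genome, release 6. Shares were compared with two-sided Fisher's exact tests, and summits with flanks by exact McNemar tests, with Benjamini-Hochberg adjustment over 9 shares or 22 motifs and a threshold of 0.05. Intervals are exact at 95% and cover counting error only. Members, gene lists and tests were chosen with earlier results of these data known. Named genes are the 20 members of highest and 5 of lowest signal, those at the limits of the rule, up to 3 per list, up to 10 in all 3 top lists, the tagged gene and genes with 3 or more members. Within lists, further genes were named by role after their values were seen. Alternatives changed distances, recurrence, window, replicates and reference set. Tested on simulated data, the motif search and test called 3 of 3 planted motifs and 1 of 19 others, the BEAF-32 core, which the planted DNA replication element contains. The tools were pandas 2.3.3, scipy 1.17.1, numpy 2.4.6 and, for plots, matplotlib 3.10.9, under Python 3.11.15.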

Additional observations from a re-analysis of the deposited data

How the results depend on the processing

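Of 145 alternative values, 105 kept their direction and their side of the threshold or stayed near the reported value, 28 moved, 12 lost a call and none reversed. Numbers of motifs were compared as counts alone, so a change in which motifs passed, or in their direction, does not enter these labels. At 35 to 45% GC the odds ratios of the forkhead and GAGA sites turned direction. The odds ratios for upstream position, divergent pairs and the X passed under each alternative run on them. With 1 group, no paired analysis was possible because there are no other samples to pair.

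For the most upstream TSS (odds ratio 0.876), the call was lost with recurrence within 100 bp (0.907) or 50 bp (0.971), beyond 1000 bp from IDR summits (0.930), in the 1447 members of highest signal (0.865) and with 1 summit per gene (0.893). For the DNA replication element (0.685), it was lost in the same settings but the last, at 0.743, 0.929, 0.772 and 0.906, and with a 50 bp window (0.765), without divergent promoters (0.879) and at 35 to 45% GC (0.727). At that GC content 0 motifs differed from IDR promoter summits by Fisher's exact test, and 2 before adjustment, against 11 over all windows. The fewer summits in most of these settings follow from their construction, and other causes were not tested.

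Recurrence within 100 or 50 bp left 1703 and 805 members at 1794 and 884 genes, and the members of highest signal lay at 1582 genes. Motifs called against flanks, from which nothing is read, then numbered 8, 6 and 9. Motifs that differed from the other sub-threshold promoter summits numbered 1 with TSS distances of 200 or 1000 bp and beyond 1000 bp from IDR summits, where Ohler 7 passed and the CTCF core did not, and 1 with either recurrence distance, where only CAGCTG passed. They numbered 5 in the members of highest signal and 0 with a 50 bp window (Fisher's exact test, 2 before adjustment), and 0 to 3 with a replicate left out. The share within 1000 bp of an IDR summit (26.3%) was 24.5% with a TSS distance of 200 bp, 22.4% and 23.2% with the recurrence distances, 24.4% in the members of highest signal and 19.0% with own summits, and 24.6% to 26.5% with a replicate left out. The mean median percentile (63.3) was 71.8 in the members of highest signal and 60.5 to 62.6 with a replicate left out, where 3542 to 3840 members were found. Own summits, the GC and divergent settings and 1 summit per gene were added after seeing the data. Each relaxed list holds 30000 summits and depth is unknown, so absence of a summit from a list does not show absence of binding.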
